A study of Mus musculus with 4 samples.

Results

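A single dose of ethylbenzene was followed for 5 h in the liver of mice that had not met the solvent before. Ethylbenzene is an alkylated benzene used as an industrial solvent and fuel component. The comparison sets 1 array of the group P+E against 1 array of the group P+P, which are 2 of the 4 arrays of the study, and its members are all genes measured, 18193 in number, of which 11513 passed a filter on low signals. All mice were C57BL/6J and 2 months old, and total liver RNA was labelled and hybridised to Affymetrix arrays. P+P mice received phosphate-buffered saline (PBS) in a first exposure of 2 intraperitoneal injections 24 h apart, were fed normally for 7 days and received PBS again. P+E mice had the same PBS injections first and then ethylbenzene at 7 mmol per kg. In both groups the liver was taken 5 h after the last injection. The array of P+P held RNA pooled from 3 mice and that of P+E RNA pooled from 5 mice. Values of 2 further pools are printed beside some results: E+P (3 mice), which received ethylbenzene at 7 mmol per kg first and PBS last, and E+E (5 mice), which received ethylbenzene both times. With 1 array per group there was no spread between animals to test against, so no p-value or standard error is given. Every difference below describes these pools.

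An aromatic solvent reaching the liver is oxidised by cytochrome P450 enzymes and then conjugated and excreted. The nuclear receptor CAR senses many such compounds and switches on drug-metabolising genes, Cyp2b10 above all in the mouse. Liver cells also answer injury and inflammation elsewhere in the body with the acute phase response, in which cytokines acting through STAT3, NF-kB and C/EBP factors raise the secretion of defence proteins. Many metabolic genes of the liver follow the circadian clock and feeding, and bile acid synthesis is shut down quickly by several stress and inflammatory signals.

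Signals are probe set intensities brought to a common distribution over the 4 arrays. A log2 ratio is the difference of log2(signal + 43.2) between P+E and P+P, where 43.2 is a pseudocount, and 1 on this scale is a 2-fold difference. The filter level was a signal of 120.0, and signals below it are treated as near background. The labelled tissue was checked against 7 hepatocyte markers, of which none was 2-fold apart: their summed signal was 912581 on P+P and 932173 on P+E, and albumin (Alb) gave 163590 and 166298. A common distribution gives equal signals to equal ranks, as for Serpina1c, at 162010 on both arrays. The closeness of sums from such bright genes is thus partly set by the processing.

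The P+P array stood apart in its control probe sets. Its 18S ribosomal RNA probe sets gave a geometric mean of 1872 and between 122 and 182 on the other 3 arrays, so P+P was at 12.9 times P+E. The Actb controls were at 8928 on P+P and between 22081 and 30540 elsewhere, and the ratio of 3' to 5' signal of the Pcx control was 6.15 on P+E against 23.5 on P+P (7.21 and 12.0 on the remaining arrays). The Gapdh controls differed little, at 54119 on P+P and 60216 on P+E. Because P+P is the baseline of every ratio below, the E+P array, whose 18S and Actb controls were near those of P+E, is given as a second baseline where it moves the value of a described gene across 2-fold or the count of a list by more than 1. That array carries an earlier exposure and is not a control of the same kind. The part of RNA quality in the results was not tested.

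**Figure D1:**
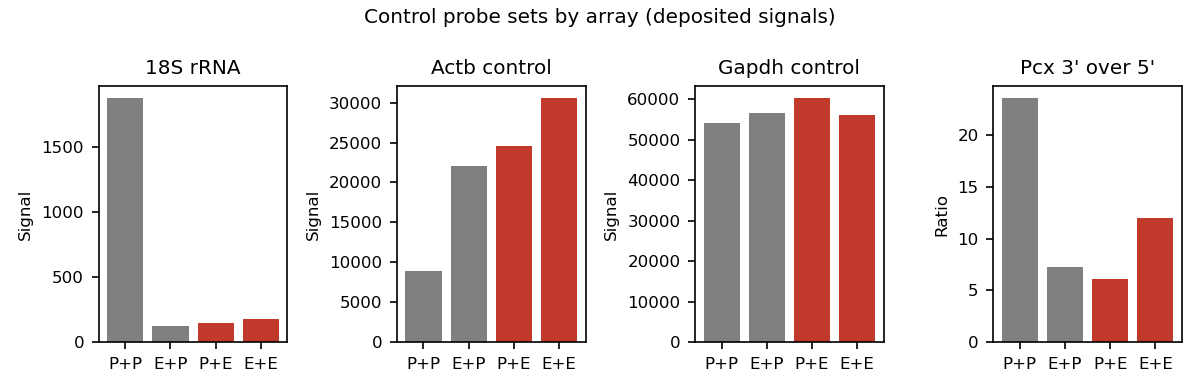
Bars show the signal of the 18S rRNA, Actb and Gapdh control probe sets (geometric means of deposited signals) and the 3' to 5' signal ratio of Pcx on each of the 4 arrays, with grey for a last injection of PBS and red for ethylbenzene. P+P stands alone with an 18S signal of 1872 and an Actb signal of 8928.

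Of the 11513 genes tested, 752 were at least 2-fold higher on P+E (6.53%) and 771 at least 2-fold lower (6.7%). These shares are the background against which the counts of every gene group below should be read. The median log2 ratio of all genes was -0.07, with a standard deviation of 0.75 over genes and a range from -5.37 to 8.72. Large differences ran upward: 47 genes were at least 8-fold higher and 12 at least 8-fold lower, and 18 genes were at least 16-fold higher against 2 at least 16-fold lower. By contrast, 7936 genes lay within 1.5-fold. The 2-fold calls depended on signal level. Genes were split into 3 groups of equal size by mean signal over the 4 arrays. In the weakest group, 358 were called higher and 444 lower, and P+P lay below the filter level for 269 of the former and P+E for 343 of the latter. In the strongest group, 207 were higher and 114 lower. With signals below the filter level set to it, 599 genes were still at least 2-fold higher and 573 at least 2-fold lower. Genes with a second probe set past the filter allowed a check within the same arrays: the second probe set had the same sign for 200 of 240 higher genes (83.3%) and for 180 of 246 lower genes (73.2%). It was itself at least 2-fold apart in that direction for 119 of the higher (49.6%) and 79 of the lower genes (32.1%). The comparison of E+E with E+P uses 2 other arrays, on which 6.91% of the tested genes passed 2-fold upward and 6.75% downward. There, 161 of the 207 strongly expressed higher genes were again at least 2-fold higher (77.8%), against 75 of the 358 weakly expressed ones (20.9%). For lower genes the shares were 72 of 114 (63.2%) and 76 of 444 (17.1%). The groups were formed from the mean of all 4 arrays, E+P and E+E among them. Lcn2 and Cyp2b10, at 96.8 and 126 on P+P, fell in the strongest group. A repeated difference can thus help to place a gene, so the contrast between groups is no independent check.

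**Figure D2:**
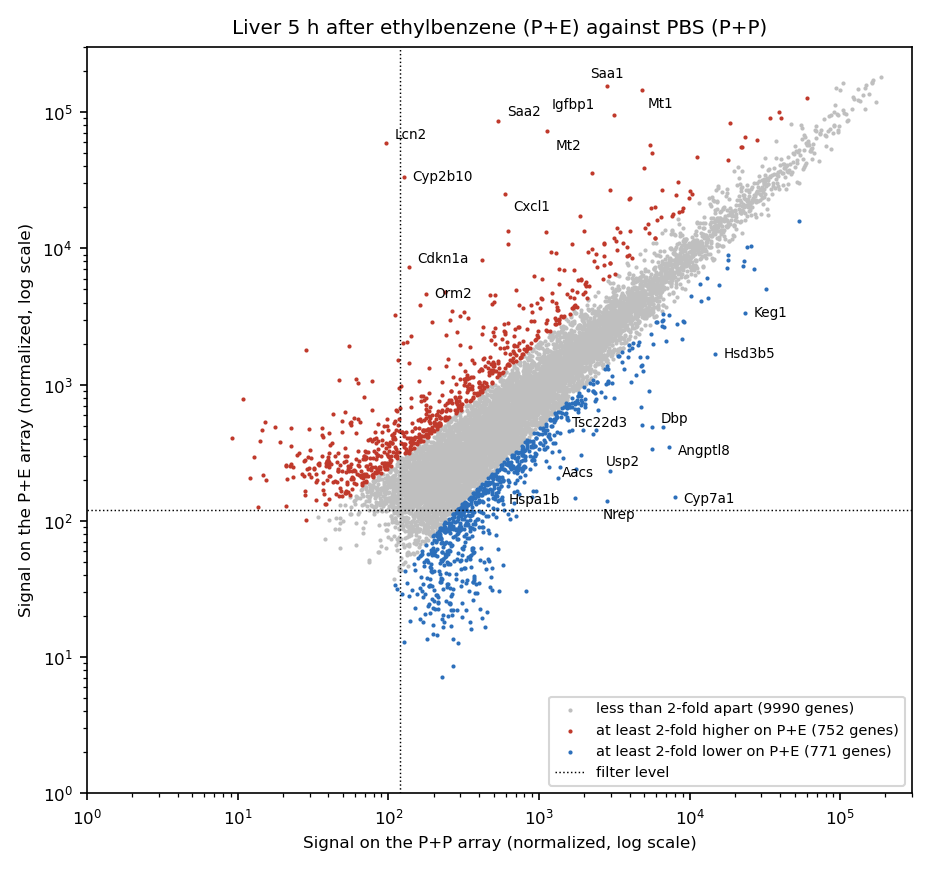
Each point is 1 of the 11513 genes tested, with its normalized signal on P+P (horizontal, log scale) and on P+E (vertical, log scale), coloured by 2-fold calls (752 higher, 771 lower), and the dotted lines mark the filter level. The named genes are the 10 highest and 10 lowest, and the fan of called genes at the lower left holds those near background on one array.

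The 10 highest genes by the fixed rule were Lcn2, Cyp2b10, Saa2, Mt2, Saa1, Cdkn1a, Cxcl1, Mt1, Igfbp1 and Orm2. They encode secreted acute phase proteins, metal-binding proteins, a cytochrome P450, a cell cycle inhibitor, a chemokine and an inhibitor of insulin-like growth factors. The 10 lowest were Cyp7a1, Angptl8, Nrep, Usp2, Aacs, Dbp, Hspa1b, Tsc22d3, Hsd3b5 and Keg1. Among these are genes of bile acid, lipid and ketone metabolism, clock-driven genes and a heat shock protein. On all 10 lowest genes the P+E signal stayed above the filter level, and of the 10 highest only Lcn2 had a P+P signal below it. All probe sets past the filter agreed in sign for each of the 20 genes, a condition of the rule. Both ethylbenzene arrays lay on one side of both PBS arrays for every one of them.

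**Figure D3:**
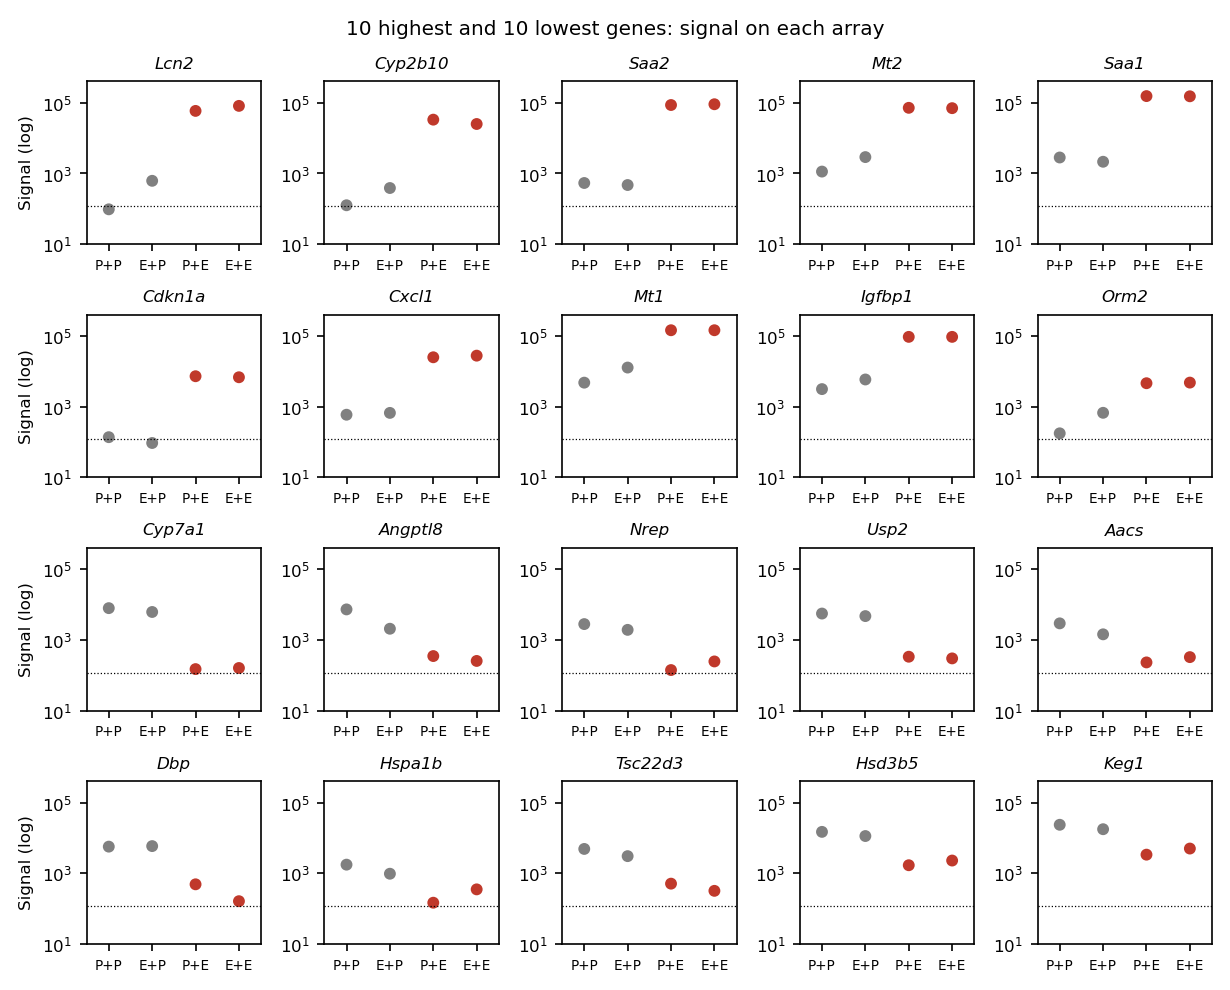
Each panel plots the normalized signal (log scale) of 1 gene on each of the 4 arrays, grey for a last injection of PBS and red for ethylbenzene, with the filter level dotted. In the upper 2 rows of panels the red points lie above the grey ones and in the lower 2 rows below them, and Lcn2 on P+P (96.8) lies under the filter level.

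Acute phase genes were higher on P+E across most of their list. Of 32 tested, 20 were at least 2-fold higher and none lower, with a median log2 ratio of 1.41 against -0.07 over all genes. Lcn2, which encodes a protein that withholds iron from bacteria, went from 96.8 on P+P to 58918 on P+E. Its log2 ratio was 8.72, or at least 8.50 if the filter level is put in for P+P, and E+P was already at 620. Saa2, a serum amyloid A gene, went from 538 to 86463 (log2 ratio 7.22) and Saa1 from 2832 to 154609 (5.75). Probe sets of the serum amyloid A, orosomucoid and metallothionein genes can share signal with their close relatives, so single members are uncertain to that extent. The orosomucoid gene Orm2 was at 177 and 4622, a log2 ratio of 4.41. Serpina3n, a protease inhibitor gene, differed by 3.38, Steap4, a metalloreductase gene, by 3.12, and Apcs, serum amyloid P, by 2.95. These 3 were picked from the list after their values were seen. Smaller differences were found for genes already strongly expressed. Haptoglobin (Hp) was at 39171 and 100628 (1.36, but 0.89 against E+P), and C-reactive protein (Crp), a minor acute phase protein in the mouse, at 14216 and 22496 (0.66). S100a8 and S100a9, which neutrophils express strongly, count among the 20 genes, and what part such cells had in the list was not tested. With E+P as the baseline the median was 1.05 and the count 16 of 32.

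The plasma proteins that fall in a longer acute phase response did not move with them. None of 12 tested was 2-fold apart, and their median log2 ratio was -0.08, beside -0.07 over all genes. Transthyretin (Ttr) was at 0.05, with 2 of its 4 probe sets in that direction, and apolipoprotein A-I (Apoa1) at -0.04. Their signals were very high on P+P and P+E, at 166298 and 172024 for Ttr and 187493 and 182077 for Apoa1. Whether probe sets this bright, or those of Alb, Cyp3a11 and Cyp2e1, could still register a difference was not tested. Coagulation factor XI (F11) came nearest to the limit at -0.97. Against E+P 1 of the 12 passed it, Serpina6, which encodes the corticosteroid carrier of plasma, at -1.21 (-0.68 against P+P).

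Upstream of the acute phase genes, a minority of the receptor and signalling genes were 2-fold apart, most of these higher, and transcripts of classical cytokines were weak. Il6 and Tnf, the classical inducers, did not pass the filter, with Il6 at 59.8 on P+P and 89.9 on P+E and Tnf at 68.0 on P+E. Il1b was at 325 and 362, a log2 ratio of 0.14. Of 20 cytokine and receptor genes tested, 4 were at least 2-fold higher and 1 lower. The interleukin 1 receptor gene Il1r1 stood out, from 1665 to 10713 (2.65), and Il17ra from 462 to 1466 (1.58). The receptor gene of leukaemia inhibitory factor, Lifr, was lower, from 24071 to 10192 (-1.24), while Osmr, the related oncostatin M receptor gene, was higher by 1.03. In the JAK-STAT list 5 of 21 genes were higher and 1 was lower. Socs3, the feedback inhibitor of interleukin 6 signalling, was at 621 on P+P, 1292 on E+P and 10829 on P+E (4.03). Stat3, the transcription factor of the pathway, went from 1466 to 6923 (2.21, all 4 probe sets in that direction), Pim1, a kinase gene it drives, differed by 2.11, and the phosphatase gene Ptpn2 by 1.98. Cish, another feedback inhibitor, was at 0.66.

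Among 13 chemokine genes, 4 were higher and 1 lower, and the group median was 0.04, near that of all genes. Cxcl1, a neutrophil attractant, differed far more than the rest, from 594 to 25059 (5.30, all 3 probe sets). Ccl2 did not pass the filter. Of 19 genes of the NF-kB pathway 3 were higher and none lower: Bcl3, a nuclear co-regulator, went from 1367 to 7059 (2.33), Tlr4, the endotoxin receptor, from 51.7 to 345 (2.03, or at least 1.25, but 0.51 against E+P), and Nfkbib was higher by 1.10 (0.58 against E+P). The early feedback genes of the pathway were close to their baseline, Nfkbia at 0.21 (3 of 5 probe sets in that direction) and Tnfaip3 at 0.18. Genes that act on the decay of inflammatory messengers were also measured. Of 10 tested, 3 were higher and none lower, with a median of 0.37. Arid5a, which encodes a protein that stabilises the interleukin 6 messenger, went from 55.0 to 1913 (4.32, or at least 3.58). Zfp36 and Zfp36l1, which encode destabilising proteins, were higher by 1.28 and 1.51.

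The promoter of Cxcl1 is printed because its NF-kB motifs are a textbook feature of this chemokine and lie next to the start site. It is the 250 bases before the start of the gene in RefSeq (build GRCm38.p6, chr5:90890995-90891244, plus strand), with the matches to GGG, any 2 bases, then TTTCC on either strand in capitals:
Cxcl1: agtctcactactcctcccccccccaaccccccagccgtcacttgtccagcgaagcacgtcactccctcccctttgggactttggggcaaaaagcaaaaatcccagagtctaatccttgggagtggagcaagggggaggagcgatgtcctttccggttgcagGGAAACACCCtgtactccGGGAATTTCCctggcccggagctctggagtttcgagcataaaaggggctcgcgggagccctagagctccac
It holds 2 matches. Among tested genes with a promoter entry, 1.64% had such a match, against 1.73% of the higher genes and 2.21% of the lower genes, so these letters did not separate the called genes. A match describes letters in the window, not a bound site.

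Immediate early genes, which stress and growth signals switch on within minutes to hours, formed the next large group. Of 11 tested AP-1 and ATF genes, 6 were higher and none lower, with a median of 1.08. Junb went from 316 to 3413 (3.27), Jun from 426 to 2640 (2.52) and Jund from 1705 to 3768 (1.12), so all 3 Jun genes were higher. Fos did not pass the filter, at 28.9 and 190. Atf3 was near background on P+P, at 99.9, and reached 461 on P+E (1.82, or at least 1.63). Of 28 other immediate early genes, 15 were higher and 1 lower, with a median of 1.02 (13 and 1 against E+P). The antiproliferative gene Btg2 went from 257 to 2985 (3.33), Egr1 from 241 to 2328 (3.06) and Klf6 from 141 to 796 (2.19, all 4 probe sets). Myc was at 334 on P+P and 1185 on P+E (1.70), but E+P was at 1275, so against that array it stood at -0.10. Tob1, a relative of Btg2, went the other way, from 3135 to 801 (-1.91). The feedback phosphatases of MAP kinases took little part: 2 of 15 feedback genes were higher, Dusp8 from 62.7 to 554 (2.50, or at least 1.87) and Dusp4 (1.24, or at least 0.67, and 0.51 against E+P), while Dusp1 was at -0.16. None of 16 growth factor and growth factor receptor genes was 2-fold apart.

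**Figure D4:**
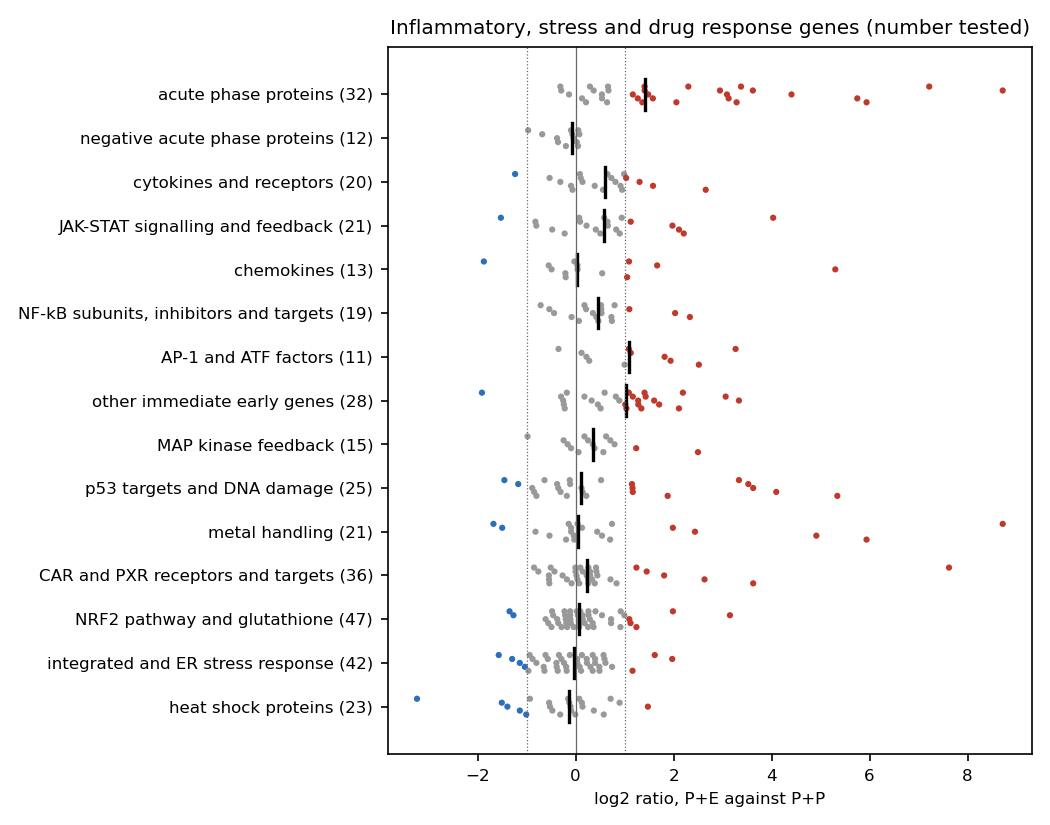
Each point is 1 tested gene of a list, placed by its log2 ratio of P+E against P+P; red is at least 2-fold higher, blue at least 2-fold lower, the black bar is the median of the list and dotted lines mark 2-fold. The acute phase list (20 of 32 higher, median 1.41) and the immediate early lists lie to the right, and the heat shock list holds more blue than red points (5 against 1).

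Growth arrest and DNA damage genes were higher in part. Cdkn1a, which encodes the cyclin-dependent kinase inhibitor p21, went from 138 to 7290 (5.34), with E+P at 94.1. All 3 Gadd45 genes, small stress sensors that act on p38 signalling and DNA repair, were higher: Gadd45a from 239 to 4788 (4.10), Gadd45g from 1114 to 13280 (3.52) and Gadd45b from 195 to 2890 (3.62). The death receptor gene Fas differed by 1.88. Other targets of p53 were not 2-fold higher than on P+P, among them Mdm2 (0.22, 1 of 2 probe sets in that direction), Ccng1 (-0.36), Bbc3 (-0.89) and Sesn2 (-0.80). The baseline mattered for a pair of them: against E+P, Mdm2 was at 1.07 (329 on E+P and 737 on P+E) and Bbc3, whose P+E signal was near background, at -1.74. In all, 9 of 25 genes of the list were higher and 2 lower, and its median was 0.12. Of 17 cell death regulators, 1 was higher (Trib1, 1.20, but 0.60 against E+P) and 1 lower (Bid, from 885 to 356, -1.22). Mcl1, an anti-apoptotic gene, was at 0.39 with all 6 probe sets above 0.

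No cell cycle gene was higher and 6 of 22 were lower. The cyclin D1 gene Ccnd1 went from 1133 to 347 (-1.59, all 3 probe sets), with E+P at 2214. Cdk6 (-1.21) and Cdk1 (-1.23) came just under 1 in size against E+P, at -0.95 and -0.97. Cdc20 was at -1.87, but P+E lay at 31.5, below the filter level, and with that level in its place the log2 ratio was -0.74. Mcm10, a replication gene, was lowest of the list, from 6675 to 492 (-3.65), with 1 of its 2 probe sets in that direction.

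The drug-response genes of CAR and PXR were moved in a few members, one of them very strongly. Cyp2b10, whose induction is the standard sign of CAR activation, went from 126 on P+P to 33311 on P+E (7.62, all 3 probe sets), with 388 on E+P and 25103 on E+E. Its relative Cyp2b9 went from 121 to 972 (2.63), with E+P at 509 and the log2 ratio against that array at 0.88. Probe sets of these close relatives can share signal. Of 36 genes in the list 6 were higher and none lower, with a median of 0.24. Gadd45b, also a CAR target, is among the 6, and so are Cyp3a13, from 5578 to 19614 (1.81), and the PXR gene Nr1i2, from 596 to 1705 (1.45, but 0.53 against E+P, which was at 1170). The CAR gene itself, Nr1i3, was at 3695 and 2031 (-0.85, and -1.22 against E+P). Cyp3a11, the major target of PXR, was at 0.10 with signals of 121430 and 129709.

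Enzymes able to oxidise ethylbenzene and its metabolites leaned slightly down. None of 33 was higher, 3 were lower, 28 had a log2 ratio below 0, and the median was -0.23. The median was itself below 0 over all genes (-0.07) and in the strongest group (-0.08). Cyp2e1, a main oxidiser of small solvents, was at 140860 and 132377 (-0.09), Cyp2f2 at -0.29 and the alcohol dehydrogenase gene Adh1 at -0.43. The 3 lower genes were the aldo-keto reductases Akr1c19 (-1.53) and Akr1c14 (-1.30) and Cyp4b1 (-1.06). Conjugation genes showed 2 of 22 higher, the sulfotransferase gene Sult1a1 from 22298 to 54943 (1.30, but 0.58 against E+P) and Nnmt, which methylates nicotinamide, from 6605 to 26719 (2.01). The glucuronide supplier Ugdh was at -0.43.

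In the pathway of the aryl hydrocarbon receptor, Tiparp, a feedback gene with several inducers, went from 336 to 3069 (3.04, all 3 probe sets), and the receptor gene Ahr from 1299 to 4000 (1.59). Cyp1a1, the most specific target of the receptor, lay near background at 178 and 81.2 (-0.83, or -0.44 with P+E at the filter level). Of 7 genes tested, these 2 were higher and none lower.

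The oxidant-response genes of NRF2 were mixed. Hmox1, which encodes heme oxygenase 1, went from 470 to 4508 (3.15). Nqo1, the most widely used target of NRF2, was at 328 and 277 (-0.21). The gene of NRF2 itself, Nfe2l2, was at -0.61, with 1 of its 2 probe sets in that direction. Of 47 genes in the list, 5 were higher and 2 lower. The glutathione transferase genes split: Gstt3 was higher by 1.99 and Gstm3 by 1.24 (0.78 against E+P), and Gstt2 was at -1.27. Heme synthesis showed little: Alas1, its rate-limiting enzyme, was at -0.43 and Alad at -0.75, and Hmox1 was the only one of 15 genes of the heme list past 2-fold.

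In the metal handling list 5 of 21 genes were higher, Lcn2, both metallothionein genes and a pair of metal carriers, and 2 were lower. Metallothioneins are small proteins that bind zinc and copper, and metals, glucocorticoids and interleukin 6 induce their genes. Mt2 went from 1132 to 72015 (5.94) and Mt1 from 4799 to 145878 (4.91). E+P was at 2907 and 12826, above P+P in both. Mt1 has the same value on E+E as on P+E because a common distribution gives equal signals to genes of equal rank, which also holds for Igfbp1. Slc39a14, the zinc importer of the acute phase, was higher from 2720 to 10893 (1.98, all 4 probe sets), and Slc30a10, a manganese exporter, from 249 to 1537 (2.44). The lower genes both move iron across membranes, ferroportin (Slc40a1) from 9251 to 2860 (-1.68) and the transferrin receptor (Tfrc) from 2028 to 689 (-1.50). Hepcidin (Hamp), the hormone that controls ferroportin, was at 0.13. The metal-sensing factor gene Mtf1 was at -0.09.

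The promoters of Mt1 and Mt2 are shown because they lie side by side on 1 chromosome and their genes moved together. Both are the 250 bases before the RefSeq start (GRCm38.p6, plus strand), Mt1 at chr8:94178839-94179088 and Mt2 at chr8:94172368-94172617. Capitals mark the core of the metal response element, searched on both strands as TGCACNC or TGCGCNC:
Mt1: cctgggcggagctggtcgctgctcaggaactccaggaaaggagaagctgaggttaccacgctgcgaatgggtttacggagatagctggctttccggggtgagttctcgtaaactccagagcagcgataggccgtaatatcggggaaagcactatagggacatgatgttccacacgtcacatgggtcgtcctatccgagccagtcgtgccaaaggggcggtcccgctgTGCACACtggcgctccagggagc
Mt2: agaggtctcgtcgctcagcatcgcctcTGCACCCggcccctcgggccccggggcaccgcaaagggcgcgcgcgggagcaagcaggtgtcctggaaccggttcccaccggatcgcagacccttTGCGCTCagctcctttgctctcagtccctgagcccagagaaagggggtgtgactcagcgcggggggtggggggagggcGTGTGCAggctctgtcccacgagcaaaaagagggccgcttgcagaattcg
The window of Mt2 held 3 matches and that of Mt1 held 1. These short letters are common: 33.6% of tested genes with a promoter entry had at least 1 match, as did 30.7% of higher and 37.4% of lower genes.

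Heat shock genes were lower more often than higher. Of 23 heat shock genes tested, 5 were lower and 1 higher, against 3 lower and 2 higher with E+P as the baseline. Hspa1b, the inducible HSP70 gene, went from 1748 on P+P to 146 on P+E (-3.24, all 3 probe sets), with 968 on E+P. The co-chaperone genes Dnaja1 (22864 to 8011, -1.51) and Dnajb1 (2363 to 873, -1.39) were lower too, and Chordc1 was at -1.14 (-0.49 against E+P). Hsp90aa1 was at 0.57, and the small heat shock gene Hspb8 was the exception, from 5080 to 14188 (1.47, all 3 probe sets). In the integrated and endoplasmic reticulum stress list, 3 of 42 genes were higher and 4 lower (5 and 2 against E+P). Hspa5, the main chaperone of the compartment, was at -0.12 and Atf4 at 0.40. Herpud1, which serves protein disposal there, was lower from 25470 to 10342 (-1.30, but -0.85 against E+P), and Ddit3, which encodes the stress factor CHOP, from 775 to 232 (-1.57). Chac1, which breaks down glutathione, was higher from 932 to 2942 (1.61). Of 31 proteasome genes none was 2-fold apart, with a range from -0.41 to 0.35. In the autophagy list 4 of 21 genes were higher, Atg14 from 782 to 3645 (2.16), the cathepsin gene Ctsl by 1.34 and Sqstm1, the cargo receptor p62, by 1.12 among them.

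Glucocorticoid targets went in both directions, 10 of 26 higher and 3 lower, with a median of 0.68. Several of the higher members, Lcn2, Mt1, Mt2, Igfbp1 and Cdkn1a, also belong to other lists above. Fkbp5, a target often used as a readout of the receptor, was at 0.37 and Tat, an amino acid catabolic target in liver, at 0.55. Tsc22d3, another widely used target also known as Gilz, was lower from 4866 to 507 (-3.16, all 3 probe sets). The receptor gene Nr3c1 was at -0.50. In the hypoxia and glycolysis list 4 of 22 genes were higher, but against E+P only 1 was, with 1 lower. Ndrg1 differed most (1.67, all 5 probe sets), and Hif1a and Epas1 were higher by 1.07 and 1.01 (0.94 and 0.75 against E+P). Vegfa was at 0.71, with 1 of its 2 probe sets in that direction.

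Part of the circadian genes were lower, among them the Per genes and several output genes. The clock is a loop in which ARNTL (BMAL1) and CLOCK switch on their own repressors through E-boxes, and the output factors DBP and TEF act on D-boxes. All livers were taken 5 h after an injection, but the labels give no clock time for any group, so a difference in the hour of killing cannot be told apart from the treatment. Of 15 core clock genes 4 were lower, all of them repressors: Ciart (1441 to 291, -2.15), Per3 (938 to 262, -1.69, all 3 probe sets), Per1 (751 to 209, -1.66) and Per2 (531 to 185, -1.33, but -0.45 against E+P). Arntl, which runs in antiphase to these genes, was the 1 higher, from 188 to 871 (1.99). The other repressor genes tested were not 2-fold apart from P+P: Nr1d1 and Cry1 were both at -0.40, Cry2 at -0.25, Nr1d2 at -0.90 (just past 2-fold against E+P) and Bhlhe40 at 0.65 (1.08 against E+P).

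Clock output genes were lower in 9 of 20 and higher in 3, with a median of -0.66. Usp2, a rhythmic deubiquitinase gene, went from 5593 to 336 (-3.89), Dbp from 5653 to 486 (-3.43) and Tef from 5691 to 1998 (-1.49). Noct, a rhythmic phosphatase gene, went from 5421 to 897 (-2.54) and Nampt, which makes NAD, from 4415 to 1180 (-1.87, all 3 probe sets). The higher genes were Nfil3 (1.81), a repressor that competes with DBP for D-boxes, Elovl3 (1.91), a fatty acid elongase gene, and Pnp (1.55). Against E+P the counts were 8 lower and 3 higher.

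The promoters of Ciart and Per3 are printed to show E-boxes and D-boxes in genes of this group. They are the 250 bases before the RefSeq start (GRCm38.p6, both on the minus strand), Ciart at chr3:95882229-95882478 with CACGTG in capitals and Per3 at chr4:151044666-151044915 with TTACGTAA or TTATGTAA on either strand in capitals:
Ciart: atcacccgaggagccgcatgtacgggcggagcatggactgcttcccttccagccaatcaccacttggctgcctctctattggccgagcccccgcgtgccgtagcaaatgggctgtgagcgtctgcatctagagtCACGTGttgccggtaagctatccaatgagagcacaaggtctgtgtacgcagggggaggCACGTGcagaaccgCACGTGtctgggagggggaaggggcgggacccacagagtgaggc
Per3: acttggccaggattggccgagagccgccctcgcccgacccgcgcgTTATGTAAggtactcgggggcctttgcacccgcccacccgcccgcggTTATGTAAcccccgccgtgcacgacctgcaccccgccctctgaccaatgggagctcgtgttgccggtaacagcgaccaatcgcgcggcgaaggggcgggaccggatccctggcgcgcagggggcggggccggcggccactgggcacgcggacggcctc
Ciart held 3 E-boxes and Per3 held 2 D-boxes. Other clock genes named above mostly lacked these letters: Dbp, Usp2, Noct, Nampt and Arntl held neither motif in such windows. Per1 held an E-box at 1 of its 2 start sites. An E-box was found for 9.85% of tested genes with a promoter entry, 9.71% of higher and 9.16% of lower genes, and a D-box for 0.783%, 0.693% and 1.58%.

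Transcription factors that define hepatocytes were lower in 6 of 32 and higher in 3. Hhex, a homeobox factor of liver development, went from 4758 to 682 (-2.73). Of the 3 Foxa genes, Foxa1 (1168 to 249, -2.05) and Foxa3 (2410 to 466, -2.27) were lower, and Foxa2 was at 0.08. The C/EBP genes parted: Cebpa, the factor of the resting liver, went from 8967 to 2159 (-2.03), while Cebpb and Cebpd, the factors of the acute phase, were higher by 1.11 and 1.58. The Cebpd difference was 0.39 when all its probe sets were averaged. Hnf4a, the central hepatocyte factor, was at -0.10, with 2 of its 4 probe sets in that direction. The bile acid receptor gene Nr1h4 was at -0.90 and Ppara at -1.14 (all 3 probe sets).

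**Figure D5:**
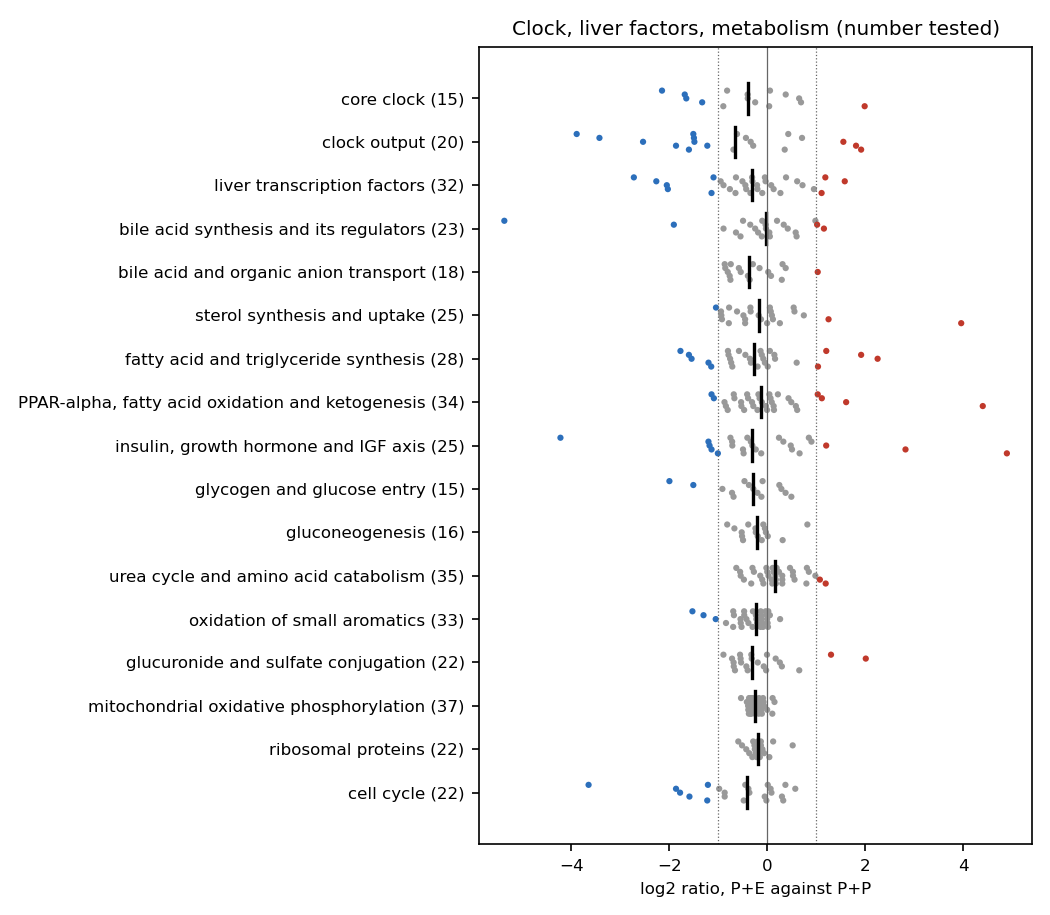
Each point is 1 tested gene of a list, placed by its log2 ratio of P+E against P+P, with colours, median bars and dotted 2-fold lines for clock, transcription factor and metabolic lists. Clock output genes lie furthest to the left as a group (median -0.66), and the oxidative phosphorylation and ribosomal protein genes form narrow bands just below 0.

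Bile acid synthesis held the lowest gene of the comparison, while other genes of the pathway differed less or went the other way. Cyp7a1, the rate-limiting enzyme of the classical pathway, went from 7954 on P+P to 150 on P+E (-5.37), with E+P at 6194 and E+E at 161. Cyp7b1 of the alternative pathway was lower from 26780 to 7094 (-1.91). Cyp8b1, which sets the kind of bile acid made, was higher from 5888 to 11951 (1.02, with 0.92 at a common 75th percentile). Nr0b2, the repressor SHP that mediates bile acid feedback on Cyp7a1, was at -0.64. In the list as a whole 2 of 23 genes were higher and 2 lower. Transporters of bile acids and organic anions leaned down with none at least 2-fold lower, with a median of -0.38 over 18 genes, though against E+P the sterol exporter genes Abcg5 (-1.51) and Abcg8 (-1.18) passed 2-fold. The uptake carriers Slc10a1 and Slco1b2 were at -0.36 and -0.81, the export pump Abcb11 at 0.31, and the carnitine carrier Slc22a5 alone was called higher (1.03).

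Sterol genes showed 1 large difference. Insig2, which holds the sterol sensor in the endoplasmic reticulum, went from 2250 to 35598 (3.96, all 3 probe sets). The cholesterol exporter Abca1 was higher by 1.25 (all 3 probe sets), Stard4, a sterol carrier gene, was at -1.05 (-0.78 against E+P), and Srebf2, the factor that drives sterol synthesis, at 0.07. Against E+P, which was at 307, Srebf2 stood at 1.17. In fatty acid and triglyceride synthesis 4 of 28 genes were higher and 5 lower. Srebf1, the factor that drives lipogenesis, was lower from 7260 to 3256 (-1.15), Mid1ip1 from 4864 to 1391 (-1.78) and Lpin1 from 22710 to 7450 (-1.60, but -0.29 against E+P). Fasn was at -0.76 and Scd1 at 0.16. Aacs, which activates ketone bodies for lipid synthesis, was among the 10 lowest genes, from 2951 to 232 (-3.44), with E+P at 1445.

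Against P+P, lipid oxidation and storage genes differed in single members. Pdk4, which shuts glucose carbon out of mitochondria, went from 112 to 3220 (4.40, or at least 4.32), while Cpt1a, the gate of fatty acid oxidation, was at 0.04. Of 34 genes under PPAR-alpha and in ketogenesis, 4 were higher and 2 lower (2 and 4 against E+P). Plin2, a coat protein of lipid droplets, was higher from 8357 to 30894 (1.88), and Hilpda, an inhibitor of lipolysis, from 56.5 to 506 (2.46, or at least 1.75). The lipase inhibitor gene G0s2 was lower from 4734 to 1367 (-1.76), with E+P at 2091 and a log2 ratio of -0.60 against it. The endothelial lipase gene Lipg was lower from 1755 to 239 (-2.67). Angptl8, an insulin-driven regulator of lipoprotein lipase, was lower from 7327 to 351 (-4.23), with E+P at 2079. Apob differed by 1.16 from P+P but by -0.41 from E+P, which makes its direction depend on the baseline.

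Genes of insulin action and growth were lower in 5 of 25 and higher in 3 (3 and 2 against E+P). Igfbp1, which is raised in fasting and stress and binds insulin-like growth factors, went from 3152 to 94724 (4.89). Irs2, an insulin signalling adaptor, was near background on P+P at 51.9 and reached 628 on P+E (2.82, or at least 2.04, and 0.95 against E+P). Igfals, a carrier of IGF1, was at a log2 ratio of -1.20, and Igf1 and Ghr were at -0.41 and -0.72. Glycogen genes were lower in 2 of 15 and higher in none. Gys2, the liver glycogen synthase, went from 11865 to 4131 (-1.51) and Ppp1r3c, a glycogen-targeting subunit of a phosphatase, from 1971 to 460. None of 16 gluconeogenic genes was 2-fold apart, with Pck1 at -0.50 and G6pc at -0.24, and against E+P the transaminase gene Got1 alone passed it (1.05). Amino acid catabolism was also near its baseline: 2 of 35 genes were higher (5 against E+P), Bhmt from 60448 to 127118 (1.07) and Aass by 1.19, and Cps1, the first step of the urea cycle, was at 0.02. Hsd3b5, a steroid dehydrogenase gene, was among the 10 lowest genes, from 14794 to 1683 (-3.10), as were Keg1, from 23479 to 3352 (-2.79), and Nrep, from 2815 to 141 (-3.96).

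The secreted hormones of the liver included a pair of inhibin subunits that parted. Inhbb, the activin B subunit gene, went from 141 to 2287 (3.66) and Inhba, the activin A subunit gene, from 535 to 174 (-1.42, but -0.67 against E+P). Fgf21, a fasting and stress hormone gene, was at -0.39. Downstream factors of BMP signalling were higher: Id3 from 2408 to 9122 (1.90), Id2 from 2338 to 8038 (1.76, all 3 probe sets) and Smad1 by 1.08, with Id1 at 0.83 (1.29 against E+P) and Smad7 at -0.05. In all, 4 of 24 genes of the TGF-beta and BMP list were higher and 1 lower (6 and 3 against E+P). In the list of Hippo pathway targets and cytoskeletal genes, 6 of 26 were higher and 1 was lower (4 and 1 against E+P), with a median of 0.22. Tubb2a (701 to 4950, 2.75), Actg1 (5855 to 20175, 1.78) and Rhob (1.41) were among the higher genes. The lower gene was Ccn1, from 307 to 25.15 (-2.36, or -1.10 with P+E at the filter level), and Ccn2 was at -0.47. Actb itself differed by 1.30, from 18109 to 44681, but E+P was at 40569, and 1 of its 2 probe sets went that way. The clotting regulators Thbd (299 to 3204, 3.24) and Plaur (120 to 669, 2.13) were the 2 of 41 higher genes in complement and coagulation, where none was lower and prothrombin (F2) was at -0.14.

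Genes of energy and protein synthesis differed little. None of 37 oxidative phosphorylation genes was 2-fold apart, yet 34 had a log2 ratio below 0, with a median of -0.25, beside -0.07 over all genes. The median was -0.28 on the deposited scale, -0.35 at a common 75th percentile and -0.12 against E+P. None of 22 ribosomal protein genes was 2-fold apart either, and 19 were below 0 (median -0.19). Of 38 genes of the nucleolus, 3 were lower and 2 higher, while against E+P none was lower and 3 were higher. The lower ones, Nop56, Nop2 and Dkc1, were at -1.16, -1.15 and -1.13 against P+P and at -0.16, -0.49 and -0.65 against E+P.

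The P+E liver RNA also held transcripts of other cell types. Bulk RNA cannot tell more cells of a type from more RNA per cell. Markers of pancreatic acinar cells, which make digestive enzymes, had higher signals after ethylbenzene. The summed signal of 8 measured markers was 797 and 709 after PBS (P+P, E+P), and 6390 and 6313 after ethylbenzene (P+E, E+E). Of these 8, 7 passed the filter, which uses the mean over all 4 arrays, and 4 of the 7 (Ctrb1, Cpa1, Cel and Clps) were below the filter level on P+P, so their passing rests on the arrays where they were high. Pnliprp1, which did not pass, was at 123 on P+P and 229 on P+E (0.71). The elastase gene Cela3b went from 132 to 2052 (3.58), but from its probe sets outside the _x_at and _s_at types it stood at 0.03. Chymotrypsinogen (Ctrb1) was at 10.9 on P+P and 785 on P+E (3.94, or at least 2.34), and carboxypeptidase A1 (Cpa1) at 14.4 and 461 (3.13, or at least 1.63). The islet hormone genes Ins2 and Gcg stayed near background on all 4 arrays, and no islet marker passed the filter. The part of acinar tissue in the other results was not tested.

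Markers of blood cells moved unevenly. Of 8 measured neutrophil markers 5 passed the filter, and of these 3 were higher and 1 lower. S100a9 went from 125 to 2025 (3.62) and S100a8 from 116 to 1506 (3.29), while Csf3r, the receptor gene of a neutrophil growth factor, was at 98.1 on P+P, 231 on E+P and 554 on P+E (2.08, or at least 1.87, and 1.12 against E+P). The granule gene Camp was at -1.51 (-0.69 with P+E at the filter level, and -0.92 against E+P) and Ngp at -0.89. Of the markers that did not pass the filter, Ltf was at -1.10, Mpo at -1.41 and Elane at 0.04. The summed signal of 8 measured markers was 1408 on P+P and 4561 on P+E, and S100a8 and S100a9 made up most of the P+E sum. None of 10 Kupffer cell markers, the resident macrophages, was 2-fold apart, with Clec4f at -0.13. Their summed signal was 17897 on P+P and 15898 on P+E but 27509 on E+P, against which their median log2 ratio was -0.76 and Cd5l passed 2-fold (-1.32). T cell, B cell and NK markers were weak, with 6 of 13 past the filter and summed signals on P+E of 270 for 5 T cell, 584 for 4 B cell and 557 for 4 NK markers. Among 7 sinusoidal endothelial markers Lyve1 alone was higher (411 to 1297, 1.56), while Stab2 and Clec4g were at -0.41 and -0.42, and Kdr was at -0.94 (-1.08 against E+P). The fat cell marker Fabp4 was higher from 595 to 2441 (1.96), and Adipoq, which is more specific to fat cells, did not pass the filter at 66.1 and 227. How far these cells carry the inflammatory genes above was not tested.

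Interferon genes showed no common direction, with 5 of 33 higher, 2 lower and a median of 0.20 (3, 3 and -0.09 against E+P). Rsad2 was higher by 1.33 (all 3 probe sets) and Ifi47 by 1.32 (0.82 against E+P), Irf1 was at 0.27 and Ifit1 at 0.56. Mx2 was near background on P+P at 15.2 and at 528 on P+E (3.29, or at least 1.81). Dhx58 was called higher by 1.27 against a P+P signal of 33.4 (0.17 with P+P at the filter level) but stood at -1.04 against E+P, an example of a call that rests on 1 weak signal of the P+P array. In the pericentral and Wnt list 3 of 23 genes were lower and 1 higher. Lgr5 went from 291 to 74.2 (-1.51, or -1.04 with P+E at the filter level), and Glul, the abundant pericentral gene, was at 0.21.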

How the data were processed

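RNA of each of the 4 groups was pooled and hybridised to 1 array, per the labels' protocols. The deposited values were linear probe set intensities of 45101 probe sets, scaled by the authors: the trimmed mean (2% off each end) was 500.004 on every array. The software behind them was not given in the sources used here. Medians still differed (129.9 on P+P, 153.1 on P+E), so the deposited intensities were quantile-normalized over the 4 arrays and taken as log2(signal + 43.2), the 25th percentile of all signals, which understates differences of weak genes. Of the probe sets, 34945 had 1 gene symbol in the platform annotation, and 34741 symbols were updated through a RefSeq gene table (GRCm38.p6, names only). Where a gene had several probe sets, the brightest on average over the 4 arrays was used. Genes with a mean below the median probe set were left out. Python 3.11.15, numpy 2.4.6 and pandas 2.3.3 were used, and the steps were tested on simulated arrays.

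The members, the 71 gene lists and the comparisons were chosen with earlier results of these data known. Named genes were the 10 highest and 10 lowest with weak signals set to the filter level, the 8 highest and 8 lowest of the most abundant of 3 equal groups, and of each list up to 5 members with the largest ratios past 2-fold and its first 3 members. Except for the first 3 members, all probe sets of a gene past the filter had to agree in sign, and clone and predicted names were left out. Other list members named were chosen after their values were seen. Lists overlap, and list genes not matched to a probe set were not analysed here. Promoter sequences are from RefSeq (GRCm38.p6), with 27025 genes having an entry. In all, 11 alternative settings were run.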

Additional observations from a re-analysis of the deposited data

Results flagged for a closer look

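The signs of 4 named genes were opposite, each at least 2-fold, in P+E against P+P and in E+E against E+P. The difference between these ratios was not tested. Acta1, the skeletal muscle actin gene, stood at 4.69 and -2.52, with signals of 28.3 (P+P) and 1808 (P+E) in the first ratio and 291 (E+P) and 14.9 (E+E) in the second. Mylpf, a fast muscle myosin light chain gene, stood at 1.36 and -1.88. The summed signal of 5 skeletal muscle markers was 3126 on P+E, above the 671 of P+P, the 1087 of E+P and the 408 of E+E. Phgdh, the first enzyme of serine synthesis, stood at 1.97 and -1.79, with 142 on P+P and 682 on P+E but 54.3 on E+E. Tet1, a DNA demethylase gene, stood at -1.09 and 1.20, with all 4 signals between 96.2 and 378.

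Probe sets without a single gene symbol stood outside the gene comparison. Of 3206 past the filter, 299 were at least 2-fold higher and 255 lower, beside 6.53% and 6.7% of the tested genes. On 12 of these probe sets the P+E signal itself, without the pseudocount, was at least 8 times both the P+P signal and the filter level. Several carry genes named above or close relatives. The probe set 1416055_at, listed for pancreatic amylase genes, went from 81.3 to 4178 (log2 ratio 5.08), and 1435012_x_at, listed for elastase 3 genes, from 110 to 2415 (4.004), in the direction of the acinar markers. The strongest in signal was 1420376_a_at, listed for histone H3.3 genes, which went from 3784 to 39431 (3.37), with E+P at 4158 and E+E at 39077. A second such probe set, 1455725_a_at, went from 9018 to 62342 (2.78). No gene symbol was listed for the other 9: 1443137_at (5.18), 1433148_at (4.58), 1447891_at (3.38), 1441592_at (3.32), 1458382_a_at (3.18), 1420310_at (3.18), 1418949_at (2.96), 1433431_at (2.91) and 1459488_at (2.87), and E+E was also higher than E+P on each of them.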

How the results depend on the processing

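The counts of 752 higher and 771 lower genes stayed within 1.5 times of these values under 8 of 11 alternatives. A pseudocount at the median of all signals gave 492 and 436, no low-level filter 1855 and 1765 of 18193 genes, and a filter at the 75th percentile 355 and 264 of 6868 genes. With E+P as the baseline the counts were 729 and 719. Of 319 named genes 196 were at least 2-fold apart, and 122 of these stayed so under every alternative that gave a value. The baseline mattered most: against E+P 41 of them kept their sign but fell short of 2-fold, 5 turned sign, and 14 named genes newly passed 2-fold.

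Signs turned for few named genes at least 2-fold apart. Against E+P, Myc stood at -0.10, Apob at -0.41, Batf3 at -0.63, Ccl24 at -0.32 and Dhx58 at -1.04. With the mean of all probe sets, Phgdh stood at -0.0065, Tet1 at 0.15 and Cd8a at 0.041, and without _x_at and _s_at probe sets Epcam stood at 0.078. Without the low-level filter the neutrophil list had a median of -0.43 over 8 genes. The causes were not tested, and the unfiltered lists add genes near background.

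No paired analysis was possible because each group was 1 pooled array, and leaving out a replicate was not possible for the same reason. Pool size (3 or 5 mice) followed the last injection and cannot be told apart from it. Signals near background limit what can be said of weak genes.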

Other observations

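Strongly expressed genes that belong to none of the lists were also among those furthest apart. Of 2108 such genes in the most abundant of 3 equal groups, 106 were at least 2-fold higher and 58 lower. Among all 3838 genes of that group, 207 were higher (5.39%) and 114 lower (2.97%). The 2108 leave out clone names and genes whose probe sets disagreed in sign. Those named here were taken from the 10 highest and 10 lowest after their values were seen. Tacc2, a centrosomal coiled-coil gene, went from 619 on P+P to 13393 on P+E (log2 ratio 4.34), with E+P at 638. Fbf1, which encodes a protein of cilia, went from 420 to 8267 (4.16). Tifa, an adaptor that activates NF-kB, was at 266 and 3446 (3.50), and E+E was higher still at 9265. Both ethylbenzene arrays were high for the ubiquitin ligase gene Rnf125 (17351 on P+E, 16644 on E+E) and for Retreg1, a receptor of reticulum autophagy (26835 and 21606), against 1870 and 2952 on P+P. Prg4, which encodes the lubricating protein lubricin, went from 1204 to 9325 (2.91), and the magnesium carrier gene Slc41a2 from 511 to 4554 (3.05). B3galt1, a glycosyltransferase gene, was higher by 2.90 on all 5 of its probe sets.

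On the lower side, Serpina4-ps1 went from 32351 to 5008 (-2.68, all 3 probe sets), with E+P between them at 17544. Plcxd2 was at 4875 and 1268 (-1.91), Hes6, a transcriptional regulator, at 5232 and 1606 (-1.68), and the secreted protein gene Oaf at 9032 and 2930 (-1.61). Ugt2b38, a glucuronosyltransferase gene, was at 2469 and 648 (-1.86), but E+P was at 1138 and the log2 ratio against it was -0.77.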
